A study of Mus musculus with 12 samples.

Results

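The cytosolic ribosomal protein genes were followed in sorted mouse hepatocytes by bulk RNA-seq. They were taken by symbol, as Rpl, Rps and Rplp genes with a number in their name, and named pseudogenes and the Rps6k kinases were left out. This gave 92 genes of 54839 features, Rps27a among them. By the annotation 76 of these are the protein-coding core of the ribosome, with 30 genes for the small subunit and 46 for the large one. The other 16 are paralogues, processed pseudogenes that carry a gene name, and Rps19bp1, which encodes a partner of the deacetylase SIRT1 and not a ribosomal protein.

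All mice were male heterozygous p16-Tom mice on a C57BL/6 background, in which the p16 promoter drives a tamoxifen-inducible Cre (p16-CreERT2) and Cre activity switches on tdTomato from the Rosa26 locus (R26-CAG-LSL-tdTomato-WPRE). They were given corn oil or carbon tetrachloride (CCl4, 1 mL/kg), a hepatotoxin used to induce liver fibrosis, for 4 weeks, and all received tamoxifen at 80 mg/kg. Live hepatocytes were sorted into tdTomato-negative (Tom-) and tdTomato-positive (Tom+) fractions, which gave 4 groups of 3 libraries: Tom- oil, Tom+ oil, Tom- CCl4 and Tom+ CCl4. The Tom+ gate marks cells in which the p16 promoter drove Cre at the time of tamoxifen, so it is a record of promoter activity and not a measure of p16 protein. Mouse ages are not given in the sources used here, and nothing in them says which libraries came from which animals, so that p-values measure the spread between these libraries.

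Ribosomal proteins form the small and the large subunit of the ribosome together with ribosomal RNA, in one copy each for nearly all of them. Their mRNAs are among the most abundant of the cell, and most begin with a C followed by a run of pyrimidines, the terminal oligopyrimidine (TOP) tract, through which mTORC1 and LARP1 adjust their translation and stability. In hepatocytes the supply of ribosomes carries a high output of secreted proteins. Each gene also has many processed pseudogene copies in the genome, to which short reads can align as well as to the parent.

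Total counts per library ranged from 37568584 to 75331424. The tdTomato reporter feature, listed without a symbol, went against the label in a pair of oil libraries: it was 1794 CPM (counts per 1000000 counts, with libraries scaled by TMM) in Tom- oil replicate 1 and 135 CPM in Tom+ oil replicate 2, whereas the other Tom- libraries held 120 to 263 CPM and the other Tom+ libraries 1225 to 1546 CPM. Labels were kept as given, and the main counts and medians, Rpl3 and Rps4l are also given without these 2 libraries. The summed CPM of 7 hepatocyte markers was 92226 to 137471 in all libraries, against at most 271 for 8 endothelial, 174 for 10 macrophage, 93.7 for 8 stellate, 18.0 for 6 cholangiocyte, 5.12 for 8 lymphocyte, 1.18 for 5 neutrophil and 21.1 for 6 erythroid markers.

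The letters at the start of these genes are shown first. Promoter windows (250 bases before to 50 after the start, RefSeq, GRCm38.p6) were found for 67 of the 92 genes. A tract of a C and 5 or more further C or T, starting within 20 bases of the annotated start on the coding strand, was found for 43 of these 67 (64.2%), compared with 34.2% of all 27025 genes with a window. The letters CCGGAAG, which ETS family factors bind, were found on either strand in 37.3% against 9.93% of all genes, GGGCGG in 59.7% against 38.2%, and AAGATGGC, the core of a YY1 site, in 8.96% against 3.19%. The letters TATAAA (11.9% against 15.7%) and CCAAT (29.9% against 41.1%) were found in a smaller share than over all genes. Each motif was counted separately and matches may overlap. A match is a description of the letters only. The 6 windows below run from 40 bases before to 20 bases after the start, 5′ to 3′, with the tract in capitals; the first 4 hold it, and those of Rps4x and of the non-ribosomal Rps19bp1 do not.
Rplp2, chr7:141447611-141447670, plus strand: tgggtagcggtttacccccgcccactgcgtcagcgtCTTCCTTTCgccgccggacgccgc
Rps27, chr3:90213629-90213688, minus strand: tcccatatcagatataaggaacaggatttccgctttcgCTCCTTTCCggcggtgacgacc
Rps15a, chr7:118116128-118116187, minus strand: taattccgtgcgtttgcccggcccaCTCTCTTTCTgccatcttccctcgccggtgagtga
Rpl35, chr2:39005112-39005171, minus strand: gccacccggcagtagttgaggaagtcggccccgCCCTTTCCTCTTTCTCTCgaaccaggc
Rps4x, chrX:102189372-102189431, minus strand: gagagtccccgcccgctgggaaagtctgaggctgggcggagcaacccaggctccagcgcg
Rps19bp1, chr15:80264287-80264346, minus strand: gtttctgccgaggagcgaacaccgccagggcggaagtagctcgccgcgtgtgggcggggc

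Ribosomal protein genes made up about 1% of all counts. Their share of the library total was 1.19%, 1.01% and 0.891% in Tom- oil, and 0.950%, 0.802% and 0.974% in Tom+ oil. It was 0.808%, 0.879% and 1.03% in Tom- CCl4, and 0.996%, 1.17% and 1.25% in Tom+ CCl4. The highest group was thus Tom+ CCl4, with 1.14% ± 0.132 (SD, n = 3), followed by Tom- oil with 1.03% ± 0.150, Tom+ oil with 0.908% ± 0.0932 and Tom- CCl4 with 0.905% ± 0.112 (each SD, n = 3). Tom+ CCl4 lay just above Tom+ oil without overlap, but the same sums as CPM with TMM factors overlapped (0.924% to 1.21% against 0.818% to 0.995%), and the other compared groups overlapped. In CCl4 mice the Tom+ library was above the same-numbered Tom- library in 3 of 3 pairs, whereas in oil mice it was below in pairs 1 and 2 and above in pair 3.

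**Figure D1:**
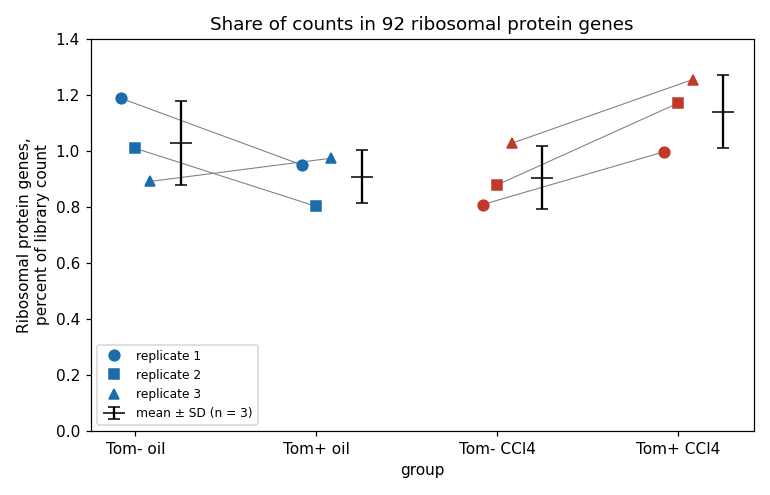
Percent of each library's count in the 92 ribosomal protein genes (vertical axis, from 0) by group; symbols are replicates 1 to 3, grey lines join the same number within a treatment, and bars give the mean ± SD (n = 3). The 3 lines rise from Tom- to Tom+ in CCl4 mice (to between 0.996% and 1.25%), and do not move one way in oil mice.

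Both subunits shared this order. The ratio of core small subunit to core large subunit counts stayed between 0.579 and 0.614 in the 12 libraries. Over the 88 genes with enough counts for a test, deviations from the group mean in log2 CPM went together, with a median pairwise Pearson correlation of 0.87 over the 12 libraries, which is given as a description since the genes share library and scaling. For 81 of the 88, the median correlation with the other members was over 0.7. The members least like the rest were Rpl7l1 (0.21), Rps27rt (0.25), Rps4l (0.35), Rps3a2 (0.39), Rps19bp1 (0.46) and Rps27a (0.62). A library that was high for one ribosomal protein gene was therefore high for nearly all of them, and their counts in a contrast are not independent. The members' median log2 CPM of a library had an SD of 0.21 within groups, pooled over the 4 groups. The median fold changes below are to be read beside it.

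CCl4 treatment was first compared with oil within the Tom- fraction. Most ribosomal protein genes were slightly lower, and 1 of them, Rpl3, passed the test (edgeR's quasi-likelihood test, Benjamini-Hochberg adjusted p below 0.05). The median log2 fold change was -0.12 over the 88 members and 0.00 over all 17121 genes, and 76 members had a negative sign (86.4%, against 49.5% of all genes). The 1 lower member is 1.14% of 88, against 6.75% of all genes called lower, and none was called higher, against 9.37%. At an unadjusted p below 0.05, 4 members were lower (4.55%, against 14.2% of all genes) and 0 higher. DESeq2 and limma-voom also called 1 member lower, against 8.65% and 6.2% of all genes. The direction rested on Tom- oil replicate 1, the highest oil library: without it the median was -0.00096, and without both oil libraries whose reporter went against the label it was 0.01, with 47 members positive, 41 negative and 2 at an unadjusted p below 0.05. Without Tom- oil replicate 3, 3 members were called lower, namely Rpl3, Rpl22 and Rps4l.

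Rpl3 encodes a core protein of the large subunit close to the peptidyl transferase centre, and lies on chromosome 15 (80077791 to 80091868, minus strand, mm10). It was 235, 190 and 183 CPM in Tom- oil and 127, 141 and 157 CPM in Tom- CCl4, and it was 191, 174 and 200 CPM in Tom+ oil and 152, 180 and 188 CPM in Tom+ CCl4. The Tom- groups did not overlap, as was so for 16.8% of all genes in this direction, whereas the Tom+ groups did. In Tom- hepatocytes Rpl3 fell by 0.52 on the log2 scale (SE 0.12, edgeR adjusted p = 0.011), and in Tom+ hepatocytes the log2 fold change was -0.12 (SE 0.12, edgeR adjusted p = 0.59). The call in Tom- was lost without the 2 oil libraries whose reporter went against the label (log2 fold change -0.40, edgeR adjusted p = 0.051), and when libraries were scaled on the ribosomal protein genes themselves (-0.38, edgeR adjusted p = 0.15).

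Relative to the other ribosomal protein genes, Rpl3 was lower with CCl4 in both fractions. The log2 CPM of Rpl3 minus the median of the core genes was 0.81, 0.83 and 0.89 in Tom- oil and 0.48, 0.49 and 0.43 in Tom- CCl4. It was 0.88, 0.998 and 0.88 in Tom+ oil and 0.61, 0.53 and 0.48 in Tom+ CCl4. The CCl4 libraries all lay below the oil libraries, by a mean of 0.38 in each fraction. Without the 2 oil libraries the differences were -0.39 in Tom- and -0.34 in Tom+. This measure was chosen after its values were seen. Of the 88 members, 81 moved by less than 0.25 on this relative scale between Tom- oil and Tom- CCl4, and 85 did so in Tom+. This scale was computed for the members alone, so that no share of all genes stands beside the next counts. The groups did not overlap on it for 5 members lower and 13 higher with CCl4 in Tom-, and for 5 lower and 7 higher in Tom+. Rpl22, a large subunit protein that also binds other RNAs, was among those lower in Tom-. Its relative level was -0.66, -0.70 and -0.75 in Tom- oil and -0.80, -0.86 and -0.92 in Tom- CCl4, and its Tom+ groups overlapped. In CPM Rpl22 was 84.4, 65.8 and 58.7 in Tom- oil and 52.1, 55.0 and 61.6 in Tom- CCl4, and these groups overlapped (log2 fold change -0.31, SE 0.12, edgeR adjusted p = 0.11).

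**Figure D2:**
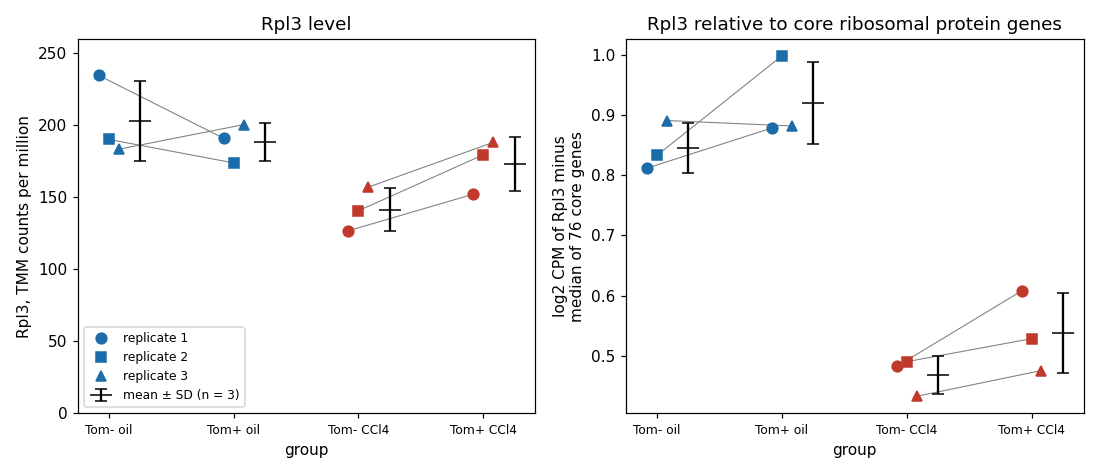
Rpl3 by group: TMM-scaled CPM (left, axis from 0), and log2 CPM minus the median of the 76 core genes (right, axis not from 0); symbols are replicates, grey lines join the same number, bars give the mean ± SD (n = 3). On the right all 6 CCl4 libraries lie at or below 0.61 and all 6 oil libraries at or above 0.81.

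In the Tom+ fraction most ribosomal protein genes were higher with CCl4, but none passed the test in edgeR. The members' median log2 CPM overlapped between the groups, with 6.32 to 6.61 in Tom+ oil and 6.53 to 6.95 in Tom+ CCl4. The median log2 fold change was 0.26, against 0.00 over all genes, and 86 of 88 members had a positive sign (97.7%, against 50.2% of all genes). In the main test 0 members were called in either direction, against 4.91% of all genes called higher and 4.56% lower. At an unadjusted p below 0.05, 26 members (29.5%) were higher and 0 lower, against 12.4% and 11.9% of all genes. DESeq2 called 3 members higher (3.41%, against 7.04% of all genes) and limma-voom 0. Groups did not overlap for 11 members, all higher in CCl4 (12.5%, against 14.6% of all genes). Without the 2 oil libraries the median was 0.20, 83 members were positive, and 7 of 88 were at an unadjusted p below 0.05 in place of 26. With single libraries left out edgeR called up to 7 members higher, 7 without Tom+ CCl4 replicate 1, 2 without Tom- oil replicate 1 or Tom- CCl4 replicate 3, and 1 without Tom- oil replicate 3.

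The stalk proteins recruit translation factors to the large subunit, and none of their genes was called in Tom+ with CCl4. Rplp0, the base of the stalk, was 312, 273 and 331 CPM in Tom+ oil and 338, 408 and 436 CPM in Tom+ CCl4, without overlap (log2 fold change 0.37, SE 0.14, edgeR adjusted p = 0.11). Rplp1 was 261, 231 and 296 CPM against 251, 313 and 357 CPM, and Rplp2 was 62.4, 59.7 and 72.2 CPM against 55.6, 76.7 and 91.2 CPM, both with overlap. Rpl5 and Rpl11, which with 5S rRNA form the particle that binds MDM2 when ribosome assembly is disturbed, were likewise not called. Rpl5 was 153, 141 and 176 CPM in Tom+ oil and 167, 199 and 219 CPM in Tom+ CCl4 (log2 fold change 0.32, SE 0.13, edgeR adjusted p = 0.16). Rpl11 was 138, 126 and 154 CPM against 137, 163 and 174 CPM.

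**Figure D3:**
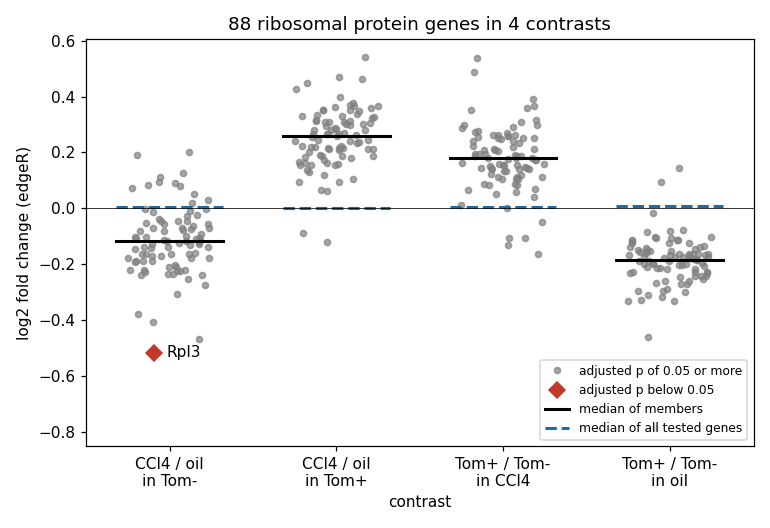
edgeR log2 fold change (vertical axis) of the 88 tested ribosomal protein genes in 4 contrasts; each point is a gene, black lines are medians of the members and dashed lines medians of all 17121 genes. The members' medians are -0.12, 0.26, 0.18 and -0.18, and Rpl3 is the 1 gene past the threshold.

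The Tom+ and Tom- fractions were then compared within each treatment. In CCl4 mice most ribosomal protein genes were higher in Tom+. The median log2 fold change was 0.18 (all genes 0.00), with a positive sign for 83 of 88 (94.3%, against 50.5% of all genes). The main test in edgeR called 0 members, against 1.96% of all genes called higher and 3.83% lower. At an unadjusted p below 0.05, 9 members were higher (10.2%, against 10.6% of all genes), and DESeq2 and limma-voom called 0. In 3 of 3 same-numbered pairs Tom+ was the higher for 67 members (76.1%, against 28.2% of all genes), and the lower for 3 (3.41%, against 26.5%). Same-numbered libraries deviated together, and with each such pair as a block of its own edgeR called 12 members higher (13.6%, against 7.94% of all genes) and 0 lower. Rpl3, Rpl23a, Rpl35, Rplp0, Rps2, Rps4x and Rps4l were among them. This count depended on the libraries: it was 4, 0 and 4 without CCl4 pair 1, 2 and 3 (against 3.44%, 1.31% and 3.95% of all genes called higher). It was 17, 8 and 44 without oil pair 1, 2 and 3 (against 7.61%, 6.45% and 11.6%). Without the 2 oil libraries alone it was 33 (against 9.4%). Without these 2 libraries and without blocks, the median was 0.17 and 13 members were at an unadjusted p below 0.05.

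In oil mice the sign by the labels was the opposite, but the reporter differed clearly between the fractions only in oil pair 3. In Tom- and Tom+ it was 1794 and 1546 CPM in pair 1, 157 and 135 CPM in pair 2, and 143 and 1225 CPM in pair 3. The members' share of counts in pair 3 was 0.891% in Tom- and 0.974% in Tom+. The median log2 fold change of Tom+ against Tom- was -0.18 (all genes 0.01), with 86 of 88 members negative (97.7%, against 48.6% of all genes), and edgeR called 0 members, as it called 0% of all genes. At an unadjusted p below 0.05, 5 members were lower (5.68%, against 3.03% of all genes) and 0 higher, and DESeq2 and limma-voom called 0. Tom+ was lower in 3 of 3 pairs for 8 members (9.09%, against 15.4% of all genes). With the pairs as blocks edgeR also called 0, but 69 were called lower without oil pair 3. The oil pairs left in that fit, 1 and 2, had a like reporter level in both libraries. In that fit 672 of all 17495 genes were called higher and 853 lower, in place of 30 and 77 of 17121. Without the 2 oil libraries whose reporter went against the label the median was -0.02, with 40 members positive, 48 negative and 0 at an unadjusted p below 0.05.

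The difference of the Tom+ against Tom- contrast between treatments had a positive sign for all 88 members (49.5% of all genes), with a median of 0.37 on the log2 scale (all genes -0.01). edgeR called 0 members, against 0.473% of all genes called higher and 1.07% lower, with 23 at an unadjusted p below 0.05 (26.1%, against 7.9% of all genes). DESeq2 called 1 member (1.14%, against 2.1% of all genes) and limma-voom 0. Without Tom- oil replicate 3 or Tom- CCl4 replicate 3 edgeR called 1 member, Rps4l. With the pairs as blocks edgeR called 26 members higher (29.5%, against 5.3% of all genes). This fell to 12, 1 and 4 without CCl4 pair 1, 2 and 3 (against 2.75%, 1.53% and 3.13% of all genes). It fell to 3 and 2 without oil pair 1 and 2 (against 2.7% and 1.91%), and rose to 76 without oil pair 3 (against 9.9%). The fit with 76 holds no oil pair whose reporter differed clearly between the fractions. Without the 2 oil libraries alone the blocked count was 0 members (against 1.5%). Only oil pair 3 then stays whole, so that this fit rests on 1 oil pair. Without these 2 libraries and without blocks the median was 0.19, with 83 positive signs. In that fit 1 member was at an unadjusted p below 0.05 in place of 23.

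Other measures of the libraries moved along with these contrasts, and their part in the result was not tested. Mitochondrially encoded genes took 1.87% to 3.66% of the counts in Tom- oil, 3.64% to 4.28% in Tom+ oil, 3.43% to 5.58% in Tom- CCl4 and 2.54% to 3.16% in Tom+ CCl4, and their median log2 fold changes were 0.84, -0.27, -0.75 and 0.41 in the 4 contrasts, opposite in sign to those of the ribosomal protein genes. The summed endothelial markers were 251 to 271 CPM in Tom- CCl4 and 96.5 to 180 CPM in the other groups, with none of the 8 at 0. The summed stellate markers were 6.90 to 15.5 CPM in Tom- oil and 62.7 to 79.7 CPM in Tom- CCl4, and 8.51 to 21.3 CPM in Tom+ oil and 47.3 to 93.7 CPM in Tom+ CCl4. Of 7 stellate markers tested, edgeR called 6 higher with CCl4 in Tom- and 5 in Tom+. Of the 8 endothelial markers it called 8 higher with CCl4 in Tom- and 0 in Tom+. In CCl4 mice it called 6 of these 8 lower in Tom+ than in Tom-. Of all genes 9.37% and 4.91% were called higher with CCl4 in Tom- and Tom+, and 3.83% lower in Tom+ in CCl4 mice. The summed macrophage markers were 19.1 to 99.6 CPM in Tom- oil and 122 to 156 CPM in Tom- CCl4, and 29.6 to 150 CPM in Tom+ oil and 63.9 to 174 CPM in Tom+ CCl4, with none of the 10 at 0. These markers had median log2 fold changes of 1.46, 0.58, -0.35 and 0.54 in the 4 contrasts. Of the 10, edgeR called 0 in each contrast, and 0 were at an unadjusted p below 0.05. DESeq2 called 0, and limma-voom called 2 with CCl4 in Tom- and 0 in the other contrasts. Other genes shorter than 1500 bases had median log2 fold changes of -0.08, -0.01, 0.02 and -0.03 in the 4 contrasts, in the order given here. In bulk RNA a change in the share of counts cannot be told apart from a change in the rest of the RNA.

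Of the 9 paralogues, 3 were too low to be tested. Rpl10l was at 0 in all libraries, while its partner Rpl10 was 284 to 396 CPM. Rpl39l reached 0.0289 CPM in 1 library and was at 0 in the rest, and Rpl3l was at most 0.332 CPM. Rps27l, a p53-responsive paralogue of Rps27, had 75.4, 73.7 and 82.3 CPM in Tom+ oil and 82.3, 98.3 and 106 CPM in Tom+ CCl4. Its partner Rps27 had 32.6, 34.3 and 34.3 CPM in Tom+ oil and 29.9, 43.6 and 46.4 CPM in Tom+ CCl4. Rpl22l1, which can take the place of Rpl22, was 7.98 to 14.4 CPM. Rpl7l1 (46.9 to 66.3 CPM), Rpl36al (41.9 to 59.1 CPM) and Rps27rt (4.02 to 6.68 CPM) were also not called in any contrast of the main test in edgeR. DESeq2 called Rpl36al higher with CCl4 in Tom+ (DESeq2 adjusted p = 0.037, edgeR adjusted p = 0.066).

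Rps4l, annotated as a transcribed processed pseudogene of the small subunit gene Rps4x, was the member with the largest difference between treatments. It was 23.0, 18.1 and 14.8 CPM in Tom- oil and 15.4, 12.6 and 12.5 CPM in Tom+ oil. In CCl4 mice it was 13.7, 11.9 and 16.4 CPM in Tom- and 22.5, 18.4 and 18.0 CPM in Tom+. Tom+ was the lower in 3 of 3 oil pairs and the higher in 3 of 3 CCl4 pairs. The CCl4 groups did not overlap, as was so for 14.1% of all genes in this direction. The log2 fold change of Tom+ against Tom- was -0.46 (SE 0.17, edgeR adjusted p = 0.60) in oil mice and 0.49 (SE 0.17, edgeR adjusted p = 0.10) in CCl4 mice. The difference between these was 0.95 (SE 0.24, edgeR adjusted p = 0.061), and with the pairs as blocks the edgeR adjusted p was 0.0034. Without the 2 oil libraries the difference was 0.72 (edgeR adjusted p = 0.20), or 0.74 with blocks (edgeR adjusted p = 0.10). The blocked call was thus lost, in a fit where only oil pair 3 stayed whole. Without these libraries and without blocks, the log2 fold changes were -0.25 in oil mice (edgeR adjusted p = 0.91) and 0.48 in CCl4 mice (edgeR adjusted p = 0.085). Its partner Rps4x was 151 to 220 CPM in oil and 151 to 240 CPM in CCl4 mice. Reads of Rps4l and Rps4x could be split by the counting, although the Rps4l counts were whole in all libraries.

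Rps27a, which encodes ubiquitin fused to a small subunit protein, varied most within groups. It was 103, 50.3 and 43.1 CPM in Tom- oil, 69.3, 40.1 and 84.4 CPM in Tom+ oil, 39.1, 46.7 and 101 CPM in Tom- CCl4 and 75.9, 77.9 and 52.6 CPM in Tom+ CCl4. All groups overlapped, and the SD of its log2 CPM within groups was 0.59. In 7 of the 12 libraries the deposited Rps27a value held a fraction.

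**Figure D4:**
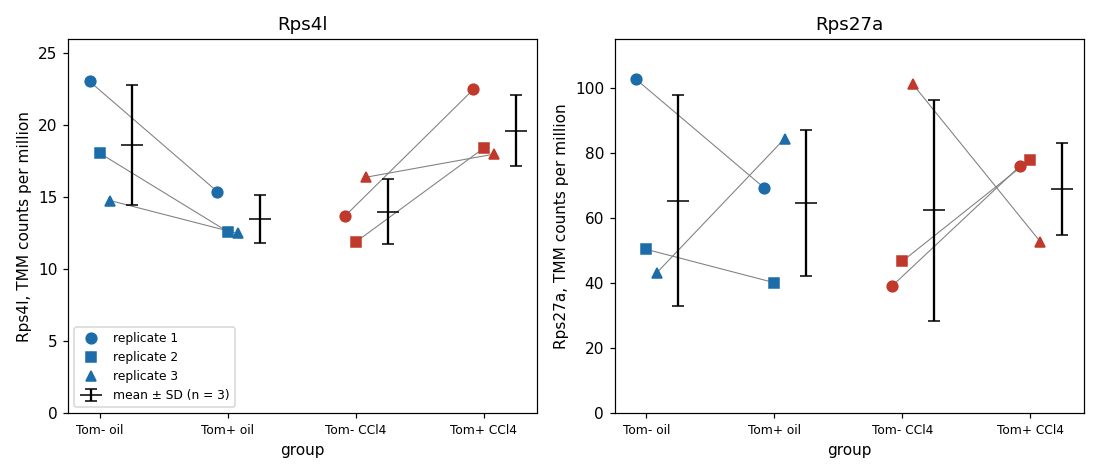
TMM-scaled CPM (vertical axes from 0) of Rps4l (left) and Rps27a (right) by group; symbols are replicates, grey lines join the same number within a treatment, bars give the mean ± SD (n = 3). Rps4l falls in 3 of 3 oil pairs and rises in 3 of 3 CCl4 pairs, whereas the Rps27a groups overlap throughout.

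Levels per length spanned a wide range. In TPM (counts divided by the deposited exon length and scaled to one common sum), the core genes had a median of 148 and ranged from 16.8 (Rps15a) to 1368 (Rplp1). The highest were Rplp1 with 1368 ± 215 TPM, Rps2 with 592 ± 97.6, Rpl36 with 534 ± 79.1, Rps3a1 with 505 ± 81.2 and Rplp0 with 488 ± 91.2 TPM (SD over 12 libraries). The lowest of all 92 were Rpl10l at 0, Rpl39l with 0.00704, Rpl3l with 0.0813, Rpl32l with 0.452 and Rps3a2 with 2.23 TPM. The deposited length counts every annotated exon, retained introns included: that of Rps15a is 6270 bases. In CPM per kilobase of the principal transcript the core genes ranged from 8.55 to 577, with a median of 125, and Rplp1 and Rps2 were again the highest.

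Fractional counts, which can arise when a read is divided among features, were common among these genes. How they arose here is not given. Of the non-zero values of the 88 members 56.1% were not whole, compared with 77.1% for the 77 tested pseudogene features named after them and 32.6% for the other genes. These named pseudogenes, 291 in the table, took 0.0380% to 0.0606% of the counts. Relative to the parent their summed CPM was 80.6% for Rpl21, 79.2% for Rps10 and 64.1% for Rpl35a. Their median log2 fold changes were -0.20, 0.20, 0.17 and -0.22 in the 4 contrasts, and 0 of 77 were called by edgeR in any of them. At an unadjusted p below 0.05 these were 3, 6, 4 and 4 features. DESeq2 called 0, 2, 1 and 0, and limma-voom 0.

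Genes that work with the ribosome were described for comparison, and their called counts are to be read against the shares of all genes called in each contrast. With CCl4 these shares were 9.37% higher and 6.75% lower in Tom-, and 4.91% and 4.56% in Tom+. For Tom+ against Tom- in CCl4 mice they were 1.96% and 3.83%. The 19 tested translation factors and other TOP genes had medians of -0.15, 0.17, 0.19 and -0.15 in the 4 contrasts, with 16 negative, 17 positive, 17 positive and 18 negative. Of these, 1 was lower with CCl4 in Tom- (Eif4a2, a helicase that unwinds mRNA, log2 fold change -0.34). In Tom+, 1 was higher (Nap1l1, a histone chaperone, 0.49) and 2 were lower (Eif4a2, -0.39, and Hnrnpa1, -0.38). In CCl4 mice 1 was higher in Tom+ (Eif3e, an initiation factor subunit, 0.31). Of 40 ribosome assembly genes, 3 were higher with CCl4 in Tom-, namely Nop56 (0.68), Nob1 (0.48) and Rrn3 (0.38), and 1, the nucleolar protein gene Ncl, was lower (-0.29). Nop56, which guides rRNA methylation, was also the lower in the Tom+ fraction when CCl4 mice were compared by fraction (-0.40). Of 20 genes of the mTOR pathway and TOP control, 2 were higher in Tom- (Myc, 1.22, and Rps6ka1, 0.70) and 2 lower (Tsc1, -0.46, and Rheb, -0.28). In Tom+, Rps6ka1 was higher (0.84). The 78 mitochondrial ribosomal protein genes had medians of -0.16, 0.01, 0.12 and -0.03. With CCl4 in Tom-, 1 of them was higher and 3 were lower, and in Tom+ 1 was higher. In CCl4 mice 1 was higher in Tom+ and 1 lower.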

How the data were processed

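PolyA RNA of 12 libraries was sequenced with a strand-specific protocol. Per the labels, the authors used fastp (v0.23.2), HISAT2 (v2.1.0), the mm10 build and DESeq2 (v1.42.1). The counter and its handling of multiply aligned reads are not given in the sources used here. The authors deposited expected counts for each feature without normalization. Many hold fractions, and all were rounded to whole numbers. Of 54839 features, 54723 (99.8%) matched a symbol. The members and lists were chosen with earlier results of these data known.

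In R (v4.3.3), edgeR (v4.0.16) with TMM factors, filterByExpr (17121 genes, 88 members) and robust quasi-likelihood tests fitted all 4 groups together, and adjusted p-values (Benjamini-Hochberg, threshold 0.05) cover all genes. Steps were tested on simulated data. CPM use TMM factors, and relative levels are log2 CPM with a prior count of 2. Alternatives were DESeq2 (v1.42.0), limma-voom (v3.58.1), other scalings and filters, blocks and left-out libraries. Named genes are the largest calls (up to 5 in each direction with a mean of at least 1 CPM), paralogues with partners, the stalk, the 5S particle, Rps27a, Rps19bp1 and the 5 highest and 5 lowest per length. Others were named after their values were seen, and some named items are not reported here. Rps19bp1 ranged from 7.49 to 11.0 CPM and was not called.

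Same-numbered Tom+ and Tom- libraries of a treatment had correlated deviations from their group means (r = 0.20, 0.23 and 0.32 in oil, 0.25, 0.19 and 0.40 in CCl4 mice), so that they were taken as pairs. The labels do not say what a number marks. Same-numbered oil and CCl4 libraries reached r = 0.23 (Tom+, number 3), so that r alone does not settle the pairing.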

Additional observations from a re-analysis of the deposited data

Results flagged for a closer look

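In 4 of 88 members (4.55%, against 11.8% of all genes), Tom+ was lower than Tom- in all 3 oil pairs and higher in all 3 CCl4 pairs, or the reverse. These were Rps4l, with a difference between the treatments of 0.95 on the log2 scale (edgeR adjusted p = 0.061), Rpl23a with 0.60 (edgeR adjusted p = 0.13), Rps15a with 0.57 (edgeR adjusted p = 0.23) and Rpl8 with 0.37 (edgeR adjusted p = 0.27). None of these differences passed the test in edgeR without blocks, and with the pairs as blocks the edgeR adjusted p was 0.0034, 0.0087, 0.013 and 0.045. The pattern of the pairs was used to choose them, so that these p-values are no independent support. Without the 2 oil libraries whose reporter went against the label, the differences with blocks were 0.74, 0.38, 0.31 and 0.15, with edgeR adjusted p of 0.10, 0.22, 0.29 and 0.57, and all 4 calls were lost. In that fit only oil pair 3 stayed whole. With 1 pair left out in turn, Rps4l stayed called in all 6 fits, whereas the highest edgeR adjusted p was 0.063 for Rpl23a, 0.067 for Rps15a and 0.16 for Rpl8. Groups of 3 libraries were not examined for outlying samples.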

How the results depend on the processing

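Rpl3 in Tom- stayed called in all 12 fits with 1 library left out, and the number of members called lower was then 1 to 3. It was 0 with a fold threshold added (0.75 on the log2 scale) and 0 without the 2 oil libraries whose reporter went against the label. For CCl4 against oil in Tom+, members called higher were 3 with DESeq2, 1 with edgeR over the 6 libraries of the contrast, 2 without a filter on low counts, 2 with the replicate block, and 0 to 7 with 1 library left out. For Tom+ against Tom- in CCl4 mice, 1 was called with the replicate block over all groups. For the difference between treatments, 1 was called with DESeq2, 1 without a filter, 1 with the replicate block, and 0 to 1 with 1 library left out. With same-numbered pairs as blocks within treatment, chosen after seeing the data, 12 were called higher in CCl4 mice. With 1 pair left out it was 0 to 44 (against 1.31% to 11.6% of all genes), and without the 2 oil libraries 33 (against 9.4%). For the difference 26 were called, and 1 to 76 with 1 pair left out (against 1.53% to 9.9% of all genes). It was 0 without the 2 oil libraries, where only oil pair 3 stayed whole. In oil mice 0 to 69 were called lower with 1 pair left out, the 69 beside 853 of all 17495 genes. The 69 and the 76 came without oil pair 3, the only oil pair whose reporter differed clearly between the fractions. Same-numbered CCl4 and oil libraries were not taken as pairs (r from 0.0090 to 0.048 in Tom- and from 0.018 to 0.23 in Tom+). The highest of these, 0.23 for Tom+ number 3, was above the lowest r of the pairs used as blocks (0.19). The members' median kept its sign under every alternative run on it, except in Tom- CCl4 against oil, where it was 0.01 without the 2 oil libraries. The difference for Rpl8 was -0.034 with libraries scaled on the members, which was chosen after seeing the data. The cause of these changes was not tested. Depth was at least 37568584 counts a library, and the 3 libraries of each group limit the precision.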
